A study of Mus musculus with 12 samples.

Results

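The receptor-regulated Smads and Smad4 are the proteins that carry signals of the TGFb superfamily from receptors at the cell surface to genes in the nucleus. The genes followed here were Smad1, Smad2, Smad3, Smad4, Smad5 and Smad9, taken as all non-control probes that the scanner files name for them. This gave 6 of the 31829 gene names on the array and 10 of its 39429 gene probes, and all 10 passed the filter on dim probes, which kept 29968 probes. Expression was measured on 12 one-colour Agilent arrays of neural stem cells that came from the cortex of E12.5 mouse embryos. The cells were stably transfected with an shRNA against JMJD3 (Kdm6b, a histone demethylase) or with a random shRNA as control, so that all groups carried an shRNA. Each line was treated for 2.5 h with 5 ng/ml TGFb or with vehicle. The groups, of 3 arrays each, were JMJD3 shRNA with TGFb, JMJD3 shRNA with vehicle, control shRNA with TGFb and control shRNA with vehicle. Knockdown rested on 1 shRNA construct, and the labels do not say whether the replicates were separate cultures, and the p-values then measure only how far these samples spread, which may be technical variation.

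In textbook accounts, Smad2 and Smad3 are phosphorylated by the TGFb and activin type I receptors, and Smad1, Smad5 and Smad9 (also called Smad8) by the BMP type I receptors. The phosphorylated proteins bind Smad4, the common partner, and the complexes enter the nucleus and bind DNA together with other transcription factors. Smad6 and Smad7 are inhibitory members that act back on the receptors and on the complexes. These arrays measure RNA and say nothing of phosphorylation or location in the cell.

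The labels were checked on the shRNA target first. Kdm6b averaged -1.93 ± 0.06 with TGFb and -1.82 ± 0.03 with vehicle in JMJD3 shRNA cells, against -0.53 ± 0.05 and -0.65 ± 0.06 in control shRNA cells (SD, n = 3). These and all levels below are log2 values with the 75th percentile of the array as 0. Its log2 change, knockdown minus control, was -1.40 ± 0.05 (SE) with TGFb and -1.17 ± 0.05 with vehicle. All 10 markers of neural stem cells and radial glia, Nes, Sox2 and Pax6 among them, were well above background on all 12 arrays. So were all 4 astrocyte markers, all 4 neuronal markers on the array, 3 of 4 oligodendrocyte, 3 of 4 endothelial, 3 of 5 fibroblast and 2 of 5 microglial markers, while the microglial gene Aif1 and the endothelial gene Cdh5 were well above background on no array. Between 70.2% and 78.4% of probes were well above background per array and 0 spots were saturated. The arrays lay on 4 slides, and slide 3 alone held all 4 groups. Arrays of 1 slide deviated from their group means together, with correlations over probes of 0.21 to 0.58 in all 12 pairs, so that values with the slide as a block and within slides stand beside the results.

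The probe positions refer to mouse build mm9. Smad1 was read by 2 probes on the minus strand of chromosome 8, at chr8:81863015-81863074 (A_52_P65108) and chr8:81880234-81880293 (A_55_P2029285). Smad5 had probes on the plus strand at chr13:56843578-56843637 (A_55_P2107972) and chr13:56838912-56838971 (A_65_P06572), and Smad9 had 1 on the plus strand at chr3:54605068-54605127 (A_55_P2129696). Smad3 was read on the minus strand at chr9:63494574-63494633 (A_55_P2101001) and chr9:63497492-63497551 (A_51_P441022). Smad2 had 1 probe and Smad4 had 2. Each probe was printed once, and all 10 were well above background on all 12 arrays and saturated or marked as outliers on none. Where a gene had 2 probes, the first named is the brighter, and is called its leading probe. The levels of different probes are not compared with each other, since brightness also depends on the probe.

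Smad9 and Smad3 were the members that changed with TGFb, so the 250 bases before their annotated starts are shown, from RefSeq (GRCm38.p6, chr3:54755332-54755581, plus strand, and chr9:63757995-63758244, minus strand). Capitals mark matches to the motifs searched on both strands, which were CAGAC (the core Smad3 and Smad4 element), GTCTAGAC (its palindrome, which holds no CAGAC on either strand) and GGCGCC (a GC-rich Smad element).
Smad9: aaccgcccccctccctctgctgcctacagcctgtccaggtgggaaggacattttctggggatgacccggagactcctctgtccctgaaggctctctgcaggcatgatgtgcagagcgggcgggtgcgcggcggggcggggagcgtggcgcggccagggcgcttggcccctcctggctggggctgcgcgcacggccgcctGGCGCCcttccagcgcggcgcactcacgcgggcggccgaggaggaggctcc
Smad3: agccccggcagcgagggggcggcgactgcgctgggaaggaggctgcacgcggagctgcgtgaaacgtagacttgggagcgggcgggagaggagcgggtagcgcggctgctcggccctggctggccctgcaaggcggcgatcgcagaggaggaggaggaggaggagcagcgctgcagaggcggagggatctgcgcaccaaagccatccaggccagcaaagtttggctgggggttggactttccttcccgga

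The Smad9 window held 1 GGCGCC, whose first base lies at -51 from the start, and neither CAGAC nor GTCTAGAC. The Smad3 window held none of the 3 motifs, nor did the Smad1 window. Smad5 had 3 annotated starts, of which one window held a GGCGCC at -19 and another a CAGAC at -21. Among all 32851 windows of this length, 9.59% held GGCGCC, 42.2% held CAGAC and 0.167% held GTCTAGAC. Windows were found for 4 of the 6 genes, without Smad2 and Smad4. A match is a description of the letters, and no match says only that these letters are not in this window.

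With TGFb, Smad9 rose 2.08-fold in JMJD3 shRNA cells and 2.27-fold in control shRNA cells, the leading probe of Smad3 rose 1.15-fold and 1.18-fold, and the remaining 8 probes were called in neither line. A probe was called where its adjusted p in limma was under 0.05, with Benjamini-Hochberg adjustment over the 29968 probes. In JMJD3 shRNA cells 2 of the 10 Smad probes were called, both higher, against 9.15% of all probes called in that comparison and 4.58% called higher. The median log2 change was 0.08 over the Smad probes and -0.02 over all probes, and the median size of the change, whichever its sign, was 0.11 over the Smad probes and 0.12 over all.

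In control shRNA cells the same 2 probes were called higher with TGFb, against 9.92% of all probes called and 5.31% called higher. Here the median log2 change was 0.07 over the Smad probes and -0.01 over all probes, and the median size was 0.08 over the Smad probes and 0.10 over all. The 2 TGFb comparisons have separate arrays, while each shares arrays with the comparisons of knockdown and control.

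**Figure D1:**
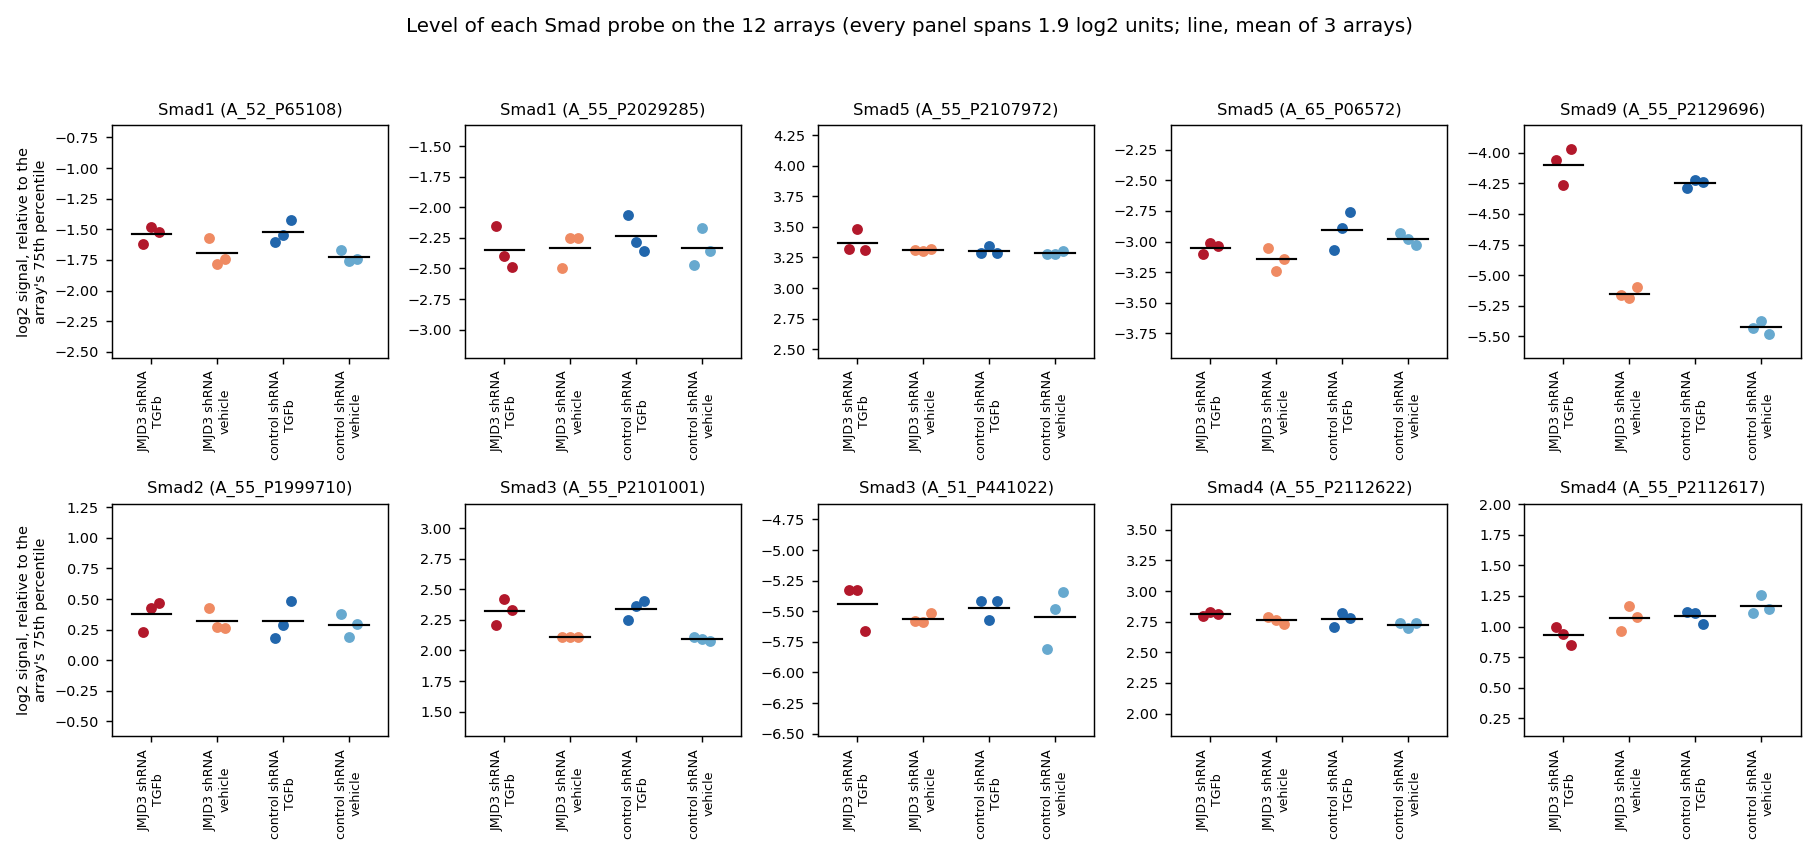
The level of each of the 10 Smad probes on the 12 arrays, in log2 units above or below the array's 75th percentile, with 1 point per array, a line at the mean of 3 arrays and panels of equal span. Only in the Smad9 panel are the TGFb and vehicle arrays of each line separated by more than 0.8, and most other panels are flat.

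Among the BMP-type Smads, Smad9 moved most. Its probe stood in JMJD3 shRNA cells at -4.06, -4.26 and -3.97 with TGFb, against -5.16, -5.19 and -5.10 with vehicle. In control shRNA cells it stood at -4.29, -4.22 and -4.24 with TGFb, against -5.43, -5.37 and -5.48 with vehicle. All 6 TGFb arrays were above all 6 vehicle arrays, with a clear gap. In scanner units the processed signal ran from 164 to 263 on the TGFb arrays and from 71.9 to 108 on the vehicle arrays.

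The rise of Smad9 with TGFb was 1.05 ± 0.09 on the log2 scale in JMJD3 shRNA cells (95% interval 0.85 to 1.25, adjusted p = 1.22e-05 in limma) and 1.18 ± 0.09 in control shRNA cells (0.98 to 1.38, adjusted p = 4.3e-06). With the slide as a block the rises were 1.06 in JMJD3 and 1.18 in control shRNA cells, and both stayed below the threshold (adjusted p = 0.00043 and 4.18e-05). Within slides, JMJD3 shRNA cells gave 1.04 on slide 3, and control shRNA cells gave 1.08 on slide 2 and 1.27 on slide 3. The rise was called under all 22 alternatives in both lines. It was smaller in the authors' processed values (0.63 in JMJD3 and 0.76 in control shRNA cells) and after normexp background correction (0.69 and 0.77), and between 0.99 and 1.21 in the other settings of either line. In RNA of whole cultures, more Smad9 RNA per cell and more cells with Smad9 cannot be told apart.

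The response of Smad9 did not differ detectably between the lines. The difference of the TGFb responses, JMJD3 shRNA minus control shRNA, was -0.13 ± 0.13 (95% interval -0.41 to 0.16, adjusted p = 0.963), so that the data allow a response up to 0.41 weaker or 0.16 stronger on the log2 scale in the knockdown. On slide 3, which held all 4 groups, the difference was -0.22. Across all probes 0.0801% were called for a difference, and 0 of the 10 Smad probes were. At an unadjusted p of 0.05 the count among the Smad probes was also 0, the lowest p being that of Smad9 at 0.348. The share of all probes at that cutoff was not counted.

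**Figure D2:**
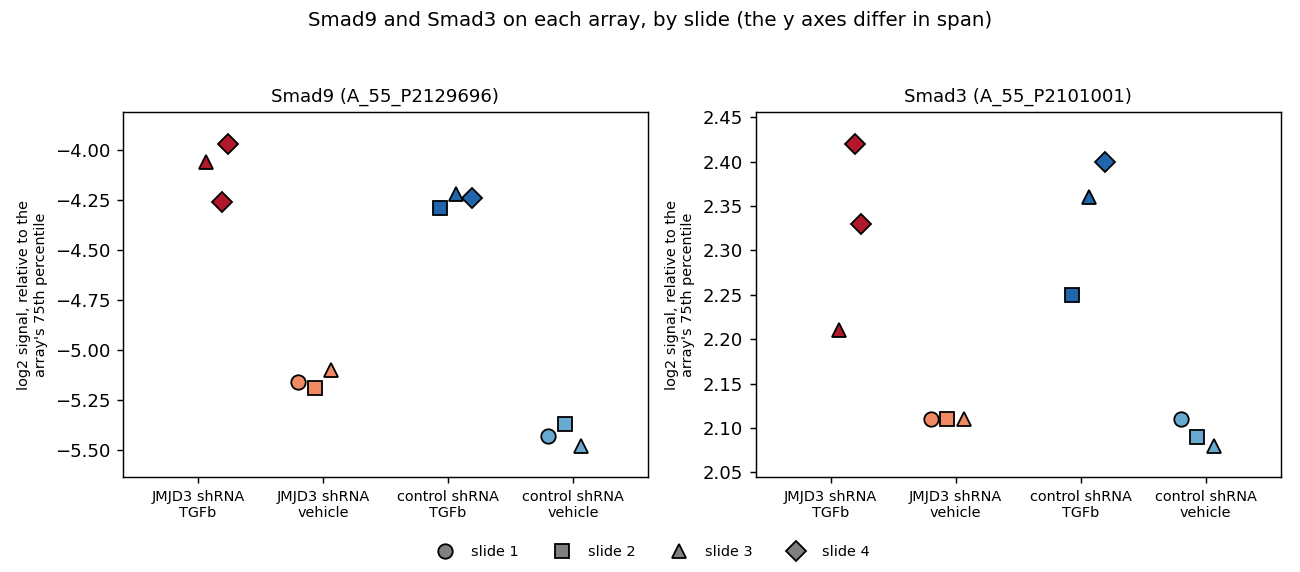
Smad9 (left) and the leading probe of Smad3 (right) on each array, in log2 units above or below the array's 75th percentile, with the marker's shape giving the slide. The Smad9 gap between TGFb and vehicle is present on every slide that holds both, while the highest Smad3 arrays, at 2.40 and 2.42, lie on slide 4, which held no vehicle array.

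Smad9 also differed between the lines without TGFb. With vehicle it was 0.28 ± 0.09 higher in JMJD3 shRNA cells than in control shRNA cells (1.21-fold, 95% interval 0.08 to 0.48, adjusted p = 0.0391), and all 3 knockdown arrays lay above all 3 control arrays. It was higher on each slide that held both, by 0.27 on slide 1, 0.19 on slide 2 and 0.38 on slide 3, and with the slide as a block (0.28, adjusted p = 0.0423). The call lay close to the threshold and was kept under 8 of 22 alternatives, whose values ran from 0.15 to 0.31. It was lost when any 1 of the 6 vehicle arrays was left out (adjusted p up to 0.122), and without control TGFb replicate 2 or 3 (0.0543 and 0.0501). With TGFb the corresponding difference was 0.15 ± 0.09 (-0.05 to 0.35, adjusted p = 0.242) and the arrays overlapped. By level, the groups ran in the order JMJD3 shRNA with TGFb, control shRNA with TGFb, JMJD3 shRNA with vehicle and control shRNA with vehicle, and the 2 TGFb groups were the neighbours whose arrays overlapped.

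Of the 10 Smad probes, Smad9 was the 1 called between the lines with vehicle, against 28.6% of all probes. With TGFb the count was 0 of 10, against 29.7% of all probes. At an unadjusted p under 0.05 that comparison gave 1 Smad probe, Smad4 A_55_P2112617, and the share of all probes at that cutoff was not counted. The median size of the knockdown difference over the Smad probes was 0.06 with TGFb and 0.03 with vehicle, beside 0.20 and 0.17 over all probes.

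Smad1, which the BMP receptors phosphorylate, gave 2 readings. On its leading probe JMJD3 shRNA cells stood at -1.62, -1.48 and -1.52 with TGFb, against -1.57, -1.78 and -1.74 with vehicle. Control shRNA cells stood at -1.60, -1.55 and -1.42 with TGFb, against -1.67, -1.76 and -1.74 with vehicle. The TGFb arrays of the control line were all above its vehicle arrays, while those of the knockdown line overlapped.

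The change with TGFb on that probe was 0.16 ± 0.07 in JMJD3 shRNA cells (95% interval 0.00 to 0.31, adjusted p = 0.255) and 0.10 with the slide as a block. In control shRNA cells it was 0.20 ± 0.07 (0.05 to 0.36, adjusted p = 0.122), which passed the threshold with the slide as a block (0.20, adjusted p = 0.0286). The second probe gave -0.01 ± 0.12 in JMJD3 and 0.10 ± 0.12 in control shRNA cells, with adjusted p of 0.968 and 0.793. It starts at base 872 of its transcript in the scanner files, where the leading probe starts at base 2268.

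The 3 groups above control shRNA with vehicle in level on the leading Smad1 probe were JMJD3 shRNA with vehicle, JMJD3 shRNA with TGFb and control shRNA with TGFb, in rising order, and every pair of neighbours in the order overlapped. Between the lines Smad1 differed by -0.02 with TGFb and 0.03 with vehicle on the leading probe, with 95% intervals of -0.18 to 0.14 and -0.13 to 0.19.

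Smad5, the third BMP-type member, was flat on its leading probe. It ranged from 3.31 to 3.48 in JMJD3 shRNA cells with TGFb, from 3.30 to 3.32 in JMJD3 shRNA cells with vehicle, from 3.29 to 3.34 in control shRNA cells with TGFb and from 3.28 to 3.30 in control shRNA cells with vehicle. The changes with TGFb were 0.06 (95% interval -0.04 to 0.16) in JMJD3 and 0.02 (-0.08 to 0.13) in control shRNA cells. On the second probe the knockdown was lower by an uncalled amount, with a log2 difference of -0.14 ± 0.08 with TGFb (adjusted p = 0.253) and -0.16 ± 0.08 with vehicle (adjusted p = 0.189). The vehicle arrays of the lines did not overlap there, at -3.05, -3.24 and -3.14 in JMJD3 shRNA cells and -2.93, -2.98 and -3.03 in control shRNA cells. With the slide as a block the difference with TGFb was -0.21 (adjusted p = 0.0341), and within slides it was -0.20 on slide 3 and -0.26 on slide 4. The leading probe gave 0.06 with TGFb and 0.02 with vehicle for the same differences, so that the 2 probes had opposite signs. Its vehicle arrays did not overlap between the lines either, with the knockdown higher by an uncalled amount. The share of all probes whose arrays do not overlap is not given here.

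**Figure D3:**
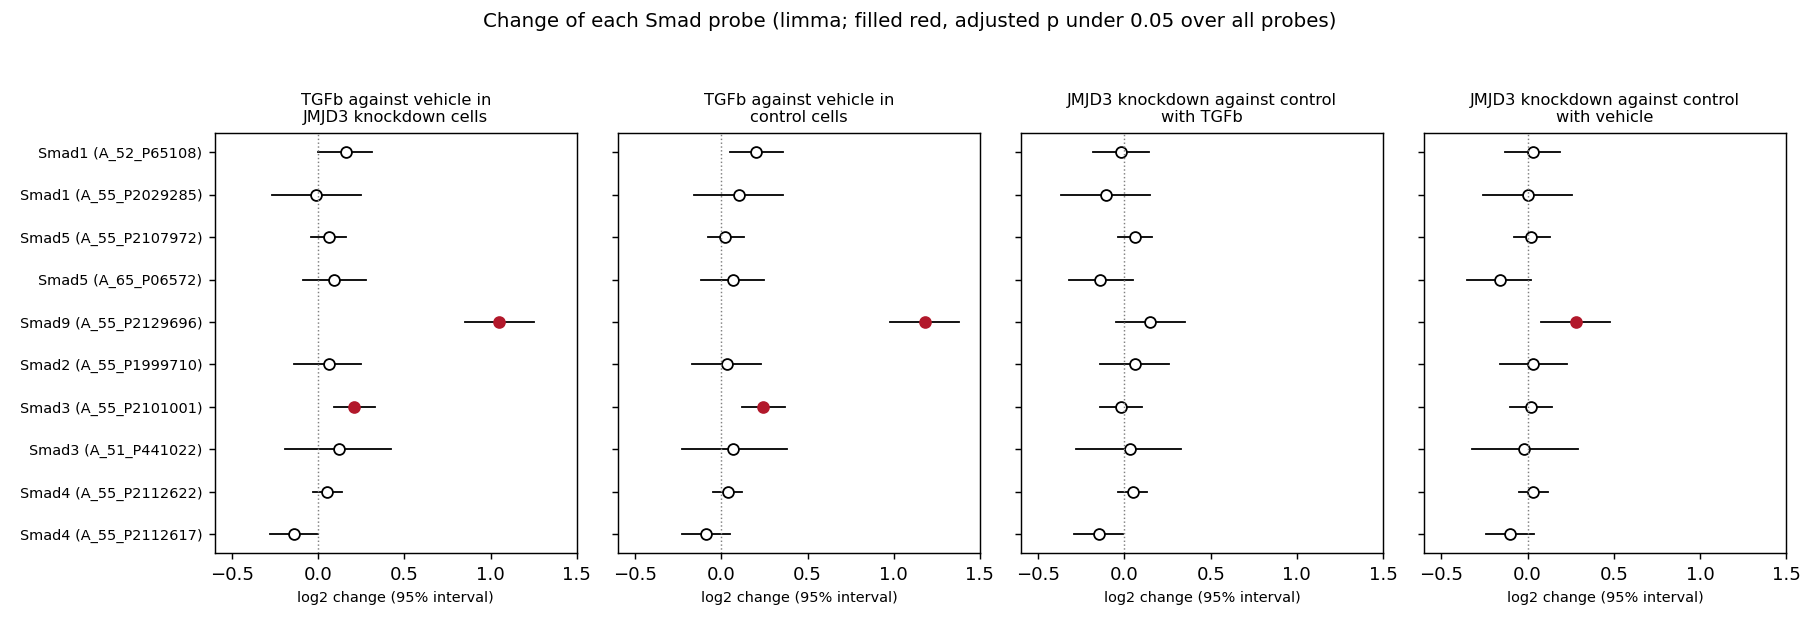
Log2 change of each Smad probe in 4 comparisons, with 95% intervals from limma, filled red where the adjusted p over all probes was under 0.05. Smad9 stands apart in both TGFb comparisons, at 1.05 in JMJD3 and 1.18 in control shRNA cells, and no other interval reaches above 0.48.

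Of the TGFb-type Smads, Smad3 rose with TGFb by a small amount on its leading probe. This probe stood in JMJD3 shRNA cells at 2.21, 2.42 and 2.33 with TGFb, against 2.11 on all 3 vehicle arrays. In control shRNA cells it stood at 2.25, 2.36 and 2.40 with TGFb, against 2.11, 2.09 and 2.08 with vehicle. The TGFb arrays lay above the vehicle arrays in both lines, and the vehicle arrays were tightly grouped.

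The rise of Smad3 was 0.21 ± 0.06 in JMJD3 shRNA cells (95% interval 0.09 to 0.33, adjusted p = 0.0385). There it lost the call with the slide as a block, at 0.12 (adjusted p = 0.277), and was 0.10 on slide 3. It was called under 8 of 22 alternatives, and leaving out any 1 of 8 arrays ended the call (adjusted p up to 0.156), namely each of the 3 JMJD3 vehicle arrays, JMJD3 TGFb replicates 2 and 3, control vehicle replicates 2 and 3 and control TGFb replicate 2. In control shRNA cells the rise was 0.24 ± 0.06 (0.12 to 0.37, adjusted p = 0.0148) and 0.20 with the slide as a block (adjusted p = 0.0157), with 0.16 on slide 2 and 0.28 on slide 3. It was called under 18 of 22 alternatives, and was lost with scaling to the array median (adjusted p = 0.119) and without control TGFb replicate 2 (0.0575), control TGFb replicate 3 (0.0622) or control vehicle replicate 3 (0.0603). The part of slide 4, which held 2 of the 3 JMJD3 TGFb arrays, in the rise of the knockdown line was not tested further.

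The second Smad3 probe, whose signal was between 66.6 and 92.2 scanner units on the 12 arrays, gave 0.12 ± 0.14 in JMJD3 and 0.07 ± 0.14 in control shRNA cells. The 95% intervals, -0.19 to 0.42 and -0.23 to 0.38, hold both 0 and the rise of the leading probe. The difference of the TGFb responses between the lines was -0.04 ± 0.08 on the leading probe (95% interval -0.21 to 0.14, adjusted p = 0.969). Knockdown and control differed by -0.02 (-0.14 to 0.10) with TGFb and by 0.02 (-0.10 to 0.14) with vehicle. In level the 2 TGFb groups overlapped, as did the 2 vehicle groups, and the TGFb groups stood above the vehicle groups.

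Smad2, the other Smad phosphorylated by the TGFb receptor, did not change by a called amount in any comparison. Its probe (A_55_P1999710, chr18:76464903-76464962, plus strand) stood at 0.23, 0.43 and 0.47 in JMJD3 shRNA cells with TGFb, against 0.43, 0.27 and 0.26 with vehicle. Control shRNA cells gave 0.18, 0.29 and 0.48 with TGFb, against 0.38, 0.19 and 0.30 with vehicle. All 4 groups overlapped. The changes with TGFb were 0.06 (95% interval -0.14 to 0.25) in JMJD3 and 0.03 (-0.17 to 0.23) in control shRNA cells, and the knockdown differences were 0.06 with TGFb and 0.03 with vehicle. With the slide as a block the sign of the TGFb changes turned, to -0.07 in JMJD3 and -0.01 in control shRNA cells, with neither called.

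Smad4, the partner of all receptor-regulated Smads, was steady on its leading probe (A_55_P2112622, chr18:73798670-73798729, minus strand), which spanned 2.70 to 2.83 over the 12 arrays. The log2 changes with TGFb were 0.05 (95% interval -0.03 to 0.14) in JMJD3 and 0.04 (-0.05 to 0.12) in control shRNA cells, and the knockdown differences were 0.05 (-0.04 to 0.13) with TGFb and 0.03 (-0.05 to 0.12) with vehicle. On this probe the TGFb arrays of JMJD3 shRNA cells (2.80 to 2.83) lay above their vehicle arrays (2.73 to 2.79), and the change was uncalled. The second probe (A_55_P2112617, chr18:73799668-73799727, minus strand) ran the other way by uncalled amounts. It stood at 1.00, 0.94 and 0.85 in JMJD3 shRNA cells with TGFb, against 1.12, 1.11 and 1.02 in control shRNA cells with TGFb. These arrays did not overlap, and the difference of -0.15 ± 0.06 (95% interval -0.29 to -0.01) had an adjusted p of 0.105, and of 0.103 with the slide as a block (-0.10). Its other changes were -0.14 and -0.09 with TGFb in JMJD3 and control shRNA cells, and -0.10 for knockdown with vehicle. The 2 Smad4 probes therefore had opposite signs in all 4 comparisons of groups, and none of these values was called.

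Cell type markers moved in the same comparisons, which with TGFb called 9.15% of all probes in JMJD3 and 9.92% in control shRNA cells. With TGFb, 1 of 10 markers of neural stem cells and radial glia was called higher and 1 lower in each line. They were Sox1, at 0.34 in JMJD3 and 0.20 in control shRNA cells, and Sox2, at -0.33 and -0.15, both transcription factors. The 2 calls in control shRNA cells were lost with the slide as a block (adjusted p = 0.0939 for Sox1 and 0.0724 for Sox2). The astrocyte marker Gfap, an intermediate filament, was called higher in each line, by 0.45 in JMJD3 and 0.93 in control shRNA cells, and lost the call in JMJD3 shRNA cells with the slide as a block (0.36, adjusted p = 0.103). The other 3 astrocyte markers were uncalled, as were all 4 neuronal, 4 oligodendrocyte, 4 microglial and 3 endothelial markers tested. With the slide as a block the astrocyte marker S100b was called higher in both lines. Its change was then 0.38 in JMJD3 (adjusted p = 0.0307) and 0.41 in control shRNA cells (adjusted p = 0.00608).

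Of the 5 fibroblast markers 3 were tested. Col1a1, a collagen chain, was called higher by 1.27 in JMJD3 and 1.11 in control shRNA cells. Dcn, a proteoglycan, averaged -7.65 in JMJD3 shRNA cells with TGFb, against -7.32 with vehicle, and -7.34 in control shRNA cells with TGFb, against -7.21 with vehicle. Col1a2, another collagen chain, averaged -4.77 against -4.60 in JMJD3 shRNA cells and -4.73 against -4.83 in control shRNA cells, and neither Dcn nor Col1a2 was called. The mean over all 5 ran from -7.23 to -6.80 in JMJD3 shRNA cells with TGFb, against -7.75 to -7.17 with vehicle, and from -7.09 to -6.69 in control shRNA cells with TGFb, against -7.40 to -7.09 with vehicle. It includes Lum and Pdgfrb, which were well above background on 1 and 2 arrays.

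Between the lines with vehicle, where Smad9 was called higher in the knockdown, 28.6% of all probes were called. Of the 10 stem cell and radial glia markers 4 were called higher (Hes5 by 0.77, Sox2 by 0.73, Slc1a3 by 0.67 and Prom1 by 0.34). The calls also held 3 lower (Sox1, Nes and Vim, at -0.38, -0.34 and -0.21). The mean over the 10 ran from 2.10 to 2.12 in JMJD3 shRNA cells, against 1.92 to 1.95 in control shRNA cells. Gfap was called higher in the knockdown, averaging -4.06 in JMJD3 shRNA cells and -5.03 in control shRNA cells, and the mean over the 4 astrocyte markers ran from -1.90 to -1.78, against -2.16 to -2. Of the 4 neuronal markers Dcx and Syt1 were called higher, by 1.12 and 1.05, and the mean ran from -2.05 to -1.96 in JMJD3 shRNA cells, against -2.61 to -2.39 in control shRNA cells. Col1a1 was called lower (-0.49), and 0 microglial and 0 endothelial markers were called. The part of these cell types in the Smad values was not tested.

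The genes whose levels over the 12 arrays followed each member most closely were found among 14825 genes with a proper symbol, by Pearson correlation of leading probes. For Smad9 they were Fst (follistatin, a secreted binder of activin), Socs2 (an inhibitor of cytokine signalling) and Mkx (a homeobox factor), with r of 0.995, 0.991 and 0.991. For Smad3 they were Tulp4, Taf4a and Reep1 (0.969, 0.961 and 0.960), and for Smad1 Slc7a6, Sox13 and Egfl8 (0.971, 0.966 and 0.962). Smad2 was followed by Tram1, Wac and Aff2 (0.968, 0.962 and 0.958), Smad4 by Strn3, Pls3 and Tspan12 (0.913, 0.895 and 0.893), and Smad5 by Zscan2, Ddx3x and Ptprg (0.934, 0.846 and 0.833). These correlations describe shared patterns over the same arrays and slides, with the best of many genes picked for each, and have no test.

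The genes that act around these Smads gave the setting. The inhibitory Smads rose with TGFb in both lines, Smad6 by 4.52 ± 0.11 in JMJD3 and 3.92 ± 0.11 in control shRNA cells and Smad7 by 3.31 ± 0.18 and 2.83 ± 0.18, on the log2 scale. Of 6 measured type I receptors, 2 were called higher and 1 lower with TGFb in each line, where 9.15% of all probes were called in JMJD3 and 9.92% in control shRNA cells. The count in control shRNA cells was 3 higher and 1 lower with the slide as a block. Acvr1, a BMP and activin receptor, rose by 0.59 in JMJD3 and 0.64 in control shRNA cells, and Acvr1b, an activin receptor, rose by 0.39 and 0.42. Bmpr1b, a BMP receptor, changed by -0.77 and -0.85. Among 5 type II receptors, Tgfbr2, which binds TGFb, changed by -0.53 and -0.84, and Acvr2b, which binds activins, by -0.56 and -0.51. Bmpr2 was also called higher in control shRNA cells (0.33, adjusted p = 0.0212), a call kept under 16 of 22 alternatives. It was lost with normexp (adjusted p = 0.22), the authors' values (0.213) and median scaling (0.171), and without control TGFb replicate 2 (0.0818), control vehicle replicate 1 (0.0803) or control TGFb replicate 1 (0.054). Bmpr2 changed in JMJD3 shRNA cells by 0.23, uncalled (adjusted p = 0.114), and its difference of TGFb responses was -0.10 (adjusted p = 0.963). The median change in JMJD3 and control shRNA cells was 0.26 and 0.17 over the type I receptors and -0.14 and -0.03 over the type II receptors.

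**Figure D4:**
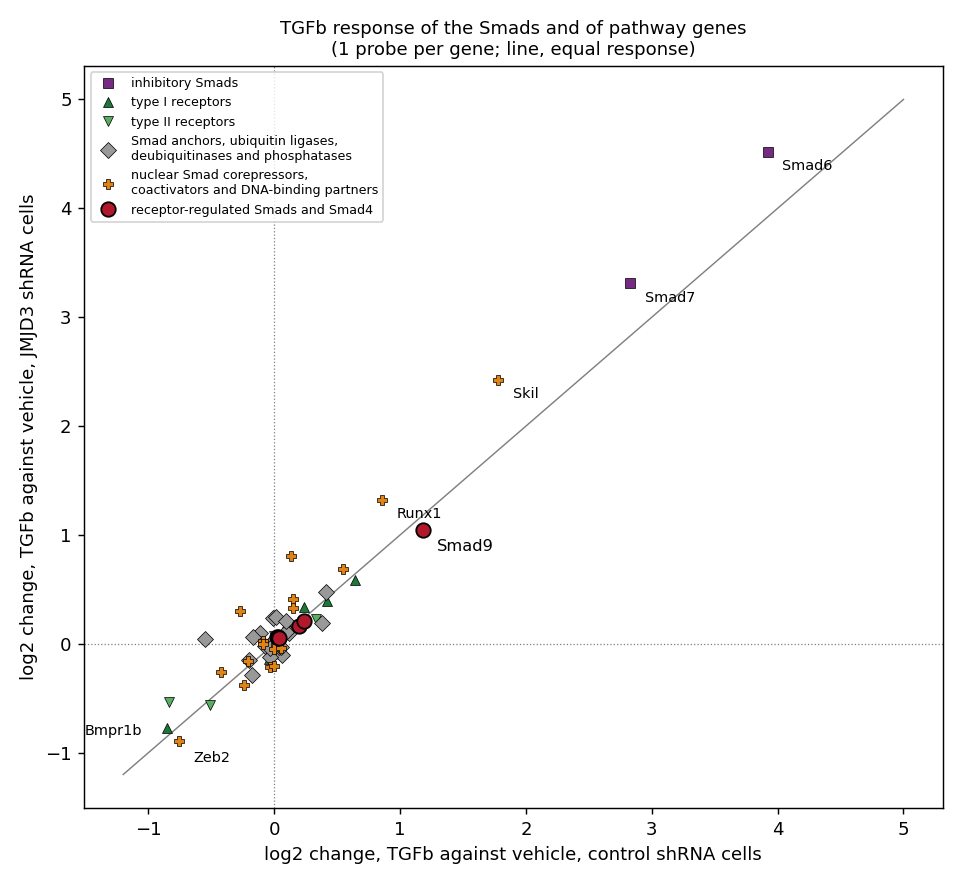
Log2 change with TGFb in JMJD3 shRNA cells (y) against control shRNA cells (x) for the leading probes of the 6 Smads (red circles) and of the pathway genes by role, with the line of equal response. The lines have separate arrays. Smad9 lies at 1.05 in JMJD3 and 1.18 in control shRNA cells, and the inhibitory Smads Smad6 and Smad7 lie farthest out.

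Of 21 measured anchors, ligases, deubiquitinases, phosphatases and transport factors of the Smads, 2 were called higher and 1 lower with TGFb in JMJD3 shRNA cells, and 2 higher and 0 lower in control shRNA cells. The shares of all probes called in these comparisons were 9.15% in JMJD3 and 9.92% in control shRNA cells. With the slide as a block the JMJD3 count was 1 higher and 0 lower, since Trim33, a ubiquitin ligase of Smad4, lost its call (0.25, adjusted p = 0.0408, against 0.17 and 0.205 with the block), as did Pias4, a SUMO ligase (-0.29, adjusted p = 0.0392, against -0.20 and 0.101). These calls were kept under 10 and 9 of 22 alternatives. Lemd3, a protein of the inner nuclear membrane that binds receptor-regulated Smads, rose by 0.48 and 0.41, and Smurf2, a ubiquitin ligase of Smads, rose by 0.38 in control shRNA cells. Smurf2 changed in JMJD3 shRNA cells by 0.19, uncalled (adjusted p = 0.0826). Its difference of TGFb responses was -0.19 (adjusted p = 0.963). Of 18 nuclear partners, 5 were called higher and 4 lower in JMJD3 shRNA cells, and 3 higher and 4 lower in control shRNA cells, and the slide block gave 4 higher and 4 lower in JMJD3 shRNA cells (without Zfp423, adjusted p = 0.055). Skil, a corepressor that binds Smads, rose by 2.42 and 1.78, Runx1, a DNA-binding partner, by 1.32 and 0.86, and Tgif1, a corepressor, by 0.69 and 0.55. Zeb2, a repressor that binds Smads, changed by -0.89 and -0.76. The median change was 0.00 in each line over both lists.

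Several pathway genes differed between the lines, in comparisons that called 29.7% of all probes with TGFb and 28.6% with vehicle. Of 6 type I receptors, 4 were called higher in JMJD3 shRNA than in control shRNA cells with TGFb and 4 with vehicle, Bmpr1b by 0.99 and 0.90 and Acvr1b by 0.44 and 0.46 among them. One of the 4 with TGFb, Acvrl1, was near the threshold (0.38, adjusted p = 0.0403) and kept its call under 11 of 22 alternatives. Among 5 type II receptors 0 were called higher and 1 lower in each comparison. They were Amhr2 with TGFb (-0.41, adjusted p = 0.0256) and Tgfbr2 with vehicle (-0.20, adjusted p = 0.0393). These calls were kept under 14 and 11 of 22 alternatives. Of the nuclear partners 2 were called higher and 7 lower with TGFb, and 3 higher and 10 lower with vehicle, with Jun, a subunit of AP-1, at -0.98 with TGFb and -0.78 with vehicle, and Tcf4, an E-box factor, at -0.81 and -0.67. The 9 calls with TGFb were kept under all 22 alternatives, and 8 of the 13 with vehicle were, Runx1 holding its call least often (-0.25, adjusted p = 0.0447, under 9 of 22). The slide block gave counts of 4 higher and 8 lower with TGFb, and 3 higher and 10 lower with vehicle. Among the 21 anchors, ligases and related genes 3 were higher and 2 lower with TGFb and 3 higher and 3 lower with vehicle, with Ctdspl, a phosphatase, at 0.48 and 0.43 and Ctdsp2, its relative, at -0.35 and -0.40. The slide block gave 4 higher and 4 lower here with TGFb, and 3 higher and 4 lower with vehicle. Smad6 was lower with vehicle (-0.69 ± 0.11, adjusted p = 0.000536), as was Smad7 (-0.55 ± 0.18, adjusted p = 0.0378), whose call was kept under 13 of 22 alternatives.

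For the difference of the TGFb responses 0 genes of these lists were called. Skil had the lowest adjusted p, with a difference of 0.64 ± 0.15 (adjusted p = 0.282), and was called with the slide as a block (0.54, adjusted p = 0.043). Smad6 had 0.60 ± 0.15 (adjusted p = 0.35), and 0.56 with the block (adjusted p = 0.292).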

How the data were processed

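The files cover 12 arrays in 1 colour. Per the file headers, images were read with Feature Extraction 10.7.3.1 and positions refer to mm9. The deposited scanner files hold linear intensity values per spot. Used here was the processed signal, an intensity from which the scanner software had removed background, per the file headers. The authors also deposited a table of log2 values, used as an alternative, whose 12 columns each matched their own array best and share a median of 7.93. Its background correction is not given in the sources used here.

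Control and outlier spots were dropped and repeated spots averaged. Each array's 75th percentile (2928 to 4124) served as the 0 of its log2 processed signals. A probe was kept if every array of some group read it well above background. Groups from the labels were compared per probe with limma 3.58.1 under R 4.3.3 (group means, eBayes with a trend, 8 residual degrees of freedom, two-sided), adjusted over 29968 probes at a threshold of 0.05. Errors of changes are SE, intervals are 95%, and precision is limited by the number of arrays. The fit was also run on simulated data with independent noise on each array, and the outcome is not given here. That simulation held no slide effect, so it cannot tell how slides bear on the calls.

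The members and gene lists were chosen with earlier results of these data known. The rule named every Smad probe, Kdm6b, the 3 genes most like each member, and up to 4 called genes of each list by size of change, some of which are left out of the text for length. Of the listed genes, Acvr1c was not kept, and Ctdnep1, Rbfox3 and Map2 have no probe under those names.

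Replicate numbers did not pair the samples: deviations of same-numbered arrays had a median correlation of -0.11 over 18 pairs (4 above 0.1). Alternatives were normexp background correction (offset 50), quantile normalization, median scaling, 2 other probe filters, 1 probe per gene, slide and replicate as blocks, array weights, the authors' table, and leaving out each array. Promoter windows and start positions came from RefSeq (GRCm38.p6), and no coordinates of the 2 builds were compared.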

Additional observations from a re-analysis of the deposited data

How the results depend on the processing

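Over the 22 alternatives, 1043 of 1080 values of the Smad probes kept their side of the threshold, 32 lost a call and 5 gained one. No called value changed sign, and 71 values that were uncalled in both settings did. The count of Smad probes called with TGFb in control shRNA cells (2) was 3 with the slide block (adding Smad1), 1 with scaling to the array median and 1 to 2 with single arrays left out. In JMJD3 shRNA cells (2) it was 1 with normexp, quantile normalization, median scaling, the slide block or the authors' values, 4 with array weights (adding Smad1 and Smad4 A_55_P2112617), and 1 to 2 with arrays left out. For knockdown with vehicle (1) it was 0 with normexp, quantile normalization, median scaling, no probe filter or the authors' values, and 0 to 1 with arrays left out. For knockdown with TGFb (0) it was 1 with the slide block (Smad5) and 1 with array weights (Smad4, -0.20, adjusted p = 0.0191), and 0 with any array left out. It was 0 for the difference of responses throughout. The cause was not tested.

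With the replicate number as a block, although the numbers did not pair the samples, the counts were 2, 1, 0, 0 and 0 in these 5 comparisons. The replicate block ended the calls of Smad3 with TGFb in JMJD3 shRNA cells (0.21, adjusted p = 0.0551) and of Smad9 for knockdown with vehicle (0.28, adjusted p = 0.0713), and no other Smad call.

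Over all probes, median scaling gave 1655 calls, against 2741, for TGFb in JMJD3 shRNA cells, 1835, against 2973, for TGFb in control shRNA cells, 5891, against 8898, for knockdown with TGFb and 5066, against 8563, for knockdown with vehicle, so that the shares of all probes set beside the Smad counts depend on the scaling. Array weights gave 5236 calls for TGFb in JMJD3 shRNA cells and 3580 for TGFb in control shRNA cells. They gave 12157 calls for knockdown with TGFb and 10465 for knockdown with vehicle, so these shares depend on the weights too. For the difference of responses the count of 24 ranged from 4 to 72. No scaling moved the median of all probes by more than 0.05.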

Other observations

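A probe named LOC100048076 (A_55_P2061724), which the scanner files describe as similar to Smad4 and which shares an accession with the leading Smad4 probe, was outside the rule for the members and was looked at after its values were seen. It averaged -3.83 in JMJD3 shRNA cells with vehicle, against -3.59 in control shRNA cells with vehicle, a log2 change of -0.24 ± 0.06 (adjusted p = 0.0156 in limma). With TGFb it averaged -3.75 in JMJD3 shRNA cells, against -3.46 in control shRNA cells, a change of -0.29 ± 0.06 (adjusted p = 0.00527). With the slide as a block the changes were -0.24 and -0.29, both called. The call with vehicle was lost with normexp (adjusted p = 0.0861), median scaling (0.154) and the authors' values (0.16), and without JMJD3 vehicle replicate 3 (0.0711) or control vehicle replicate 3 (0.0506), and the call with TGFb was kept in each of these. The leading Smad4 probe gave 0.03 and 0.05 in the same comparisons, uncalled. Whether this probe reads Smad4 transcripts was not tested.

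A probe named Gm4570 (A_55_P2015799), described in the files as similar to Smad5, had no call in any comparison. Its log2 change with TGFb was 0.02 in JMJD3 shRNA cells and -0.11 in control shRNA cells.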
